A study of Mus musculus with 9 samples.

Results

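The hippocampus is built of fields whose principal neurons carry different transcripts, so marker genes of the fields read how much RNA of each field a dissected sample holds. The set described here has 31 marker genes: 14 of dentate granule cells, 7 of CA1 pyramidal cells, 5 of CA2 and 5 of CA3. They were chosen by name, by matching Ensembl identifiers to symbols, and make up 31 of the 22255 genes of the table. All 31 were present and all 31 passed the count filter, so each was among the 14512 genes tested. The division into fields follows that list and is not exclusive: Calb1 is also known from CA1 and interneurons, and Pcp4 from dentate granule cells.

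RNA came from hippocampal synaptoneurosomes, which are resealed synaptic endings prepared by filtering or spinning down homogenised tissue. All 9 samples were from Fmr1 KO mice of the strain C57Bl/6J, the mouse model of fragile X syndrome. The 4 treated samples (AM6545 A, B, C and E) came from mice given AM6545, an antagonist of the CB1 cannabinoid receptor with little entry into the brain, over a sub-chronic course, and the 5 controls (vehicle A to E) from mice given vehicle. Dose, route, duration in days, age, sex and whether a sample is 1 animal or a pool are not given in the sources used here, and no wild-type sample was analysed here. The p-values therefore measure the spread between these samples. In bulk RNA, fewer cells of a field and less RNA per cell cannot be told apart.

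As background, information passes through the hippocampus in a chain. Granule cells of the dentate gyrus send mossy fibre axons to CA3, CA3 pyramidal cells send Schaffer collaterals to CA1, and CA2 is a small field between them with its own inputs and a known role in social memory. A synaptoneurosome fraction holds terminals and dendritic fragments with attached RNA, and some cell body RNA as well. In such a fraction a marker level depends on the dissected tissue and on where in the cell its mRNA lies.

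Counts per sample ran from 17628922 to 27263393. Of 14512 genes tested with edgeR's quasi-likelihood test, 0 had an adjusted p under 0.05 (0.0% of genes; 1047 had an unadjusted p under 0.05, and DESeq2 also called 0). The smallest adjusted p was 0.653. Fmr1, the targeted gene, was counted at 9.45 to 13.3 CPM in the 9 samples; without a wild-type sample this does not check the genotype. Mitochondrial transcripts took 4.06 to 7.90% of counts. Choroid plexus RNA varied most among the non-neuronal marker lists. The summed level of its 8 markers ran from 66.8 to 993 CPM (counts relative to each library's TMM-scaled total) in AM6545 samples and from 52.9 to 4519.9 CPM in vehicle samples, and its part in the results here was not tested.

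All 31 markers were detected in every sample. By the levels of the 14 dentate and 7 CA1 members, the balance between dentate gyrus and CA1 was nearly the same in all 9 samples. Another list of dentate granule genes, given below, ordered the samples differently. The mean log2 CPM of the 14 dentate markers minus that of the 7 CA1 markers was -1.42, -1.39, -1.40 and -1.50 in AM6545 A, B, C and E. In vehicle A to E the same difference was -1.42, -1.49, -1.39, -1.36 and -1.46. The group means were -1.43 ± 0.05 (SD, n = 4) and -1.42 ± 0.05 (SD, n = 5), a gap of -0.0043 that is far smaller than the spread between replicates. Both levels sat slightly higher in AM6545 samples and by a similar amount, 0.13 for each. The CA2 with CA3 level was lower by less than 1 SD of either group (-0.05), although 6 of its 10 members were above 0. Its largest fold changes were those of Pcp4 and Nnat (log2 fold change -0.36 each). The balances of dentate and of CA1 against CA2 with CA3 were each 0.18 higher in the treated mean, with overlapping groups. They were not computed without these 2 genes. No single member passed the test after adjustment.

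For 4 members the unadjusted p was under 0.05 in edgeR's quasi-likelihood test, 4 of 31 against 7.21% of all genes tested. In the higher direction there were 2, the dentate gene Dsp and the CA1 gene Fibcd1, against 3.03% of all genes. In the lower direction there were 2, Pcp4 of the CA2 list and Nnat of the CA3 list, against 4.18% of all genes. After adjustment over all genes 0 of the 31 passed. CPM ranges of the groups overlapped for each of the 31, while they did not overlap for 1.45% of all genes. A log2 fold change above 0 was found for 23 of the 31, against 48.2% of all genes, and one of over 0.25 in size for 7, against 19.5%. Those 7 were Dsp, Lct, Plk5, Npnt and Fibcd1 above 0 and Pcp4 and Nnat below. The count of 4 at an unadjusted p under 0.05 depended on single samples: it was 2 without AM6545 C (Dsp and Wfs1), where 690 of all genes had such a p, and 2 without vehicle C (Dsp and Lct), where 1023 had. It was 7 without AM6545 B (642 of all genes), without vehicle B (1797) and with DESeq2 (1160), so the same count of members stands against different backgrounds. The count filter was applied anew in each edgeR fit and not used with DESeq2. These numbers of genes may come from different sets of genes and are not shares. Dsp was among them in each of these fits.

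The 150 bases before the transcription start of these 4 genes are shown, with CpG dinucleotides in capitals. The genes were chosen by an unadjusted p under 0.05 in edgeR's quasi-likelihood test and did not pass adjustment. Sequences are RefSeq's for GRCm38.p6, 5′ to 3′ on the strand of the gene.
Dsp (chr13:38151144-38151293, plus strand): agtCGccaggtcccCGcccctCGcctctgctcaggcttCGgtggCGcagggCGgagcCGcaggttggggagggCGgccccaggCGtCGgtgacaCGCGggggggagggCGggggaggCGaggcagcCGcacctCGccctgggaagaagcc
Fibcd1 (chr2:31846006-31846155, minus strand): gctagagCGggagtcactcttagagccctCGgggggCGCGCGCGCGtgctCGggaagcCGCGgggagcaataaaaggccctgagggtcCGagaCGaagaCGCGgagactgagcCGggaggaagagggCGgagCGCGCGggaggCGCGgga
Pcp4 (chr16:96467456-96467605, plus strand): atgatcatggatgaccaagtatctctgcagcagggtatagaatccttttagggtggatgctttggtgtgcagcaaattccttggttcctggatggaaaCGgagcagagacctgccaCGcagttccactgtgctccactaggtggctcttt
Nnat (chr2:157559928-157560077, plus strand): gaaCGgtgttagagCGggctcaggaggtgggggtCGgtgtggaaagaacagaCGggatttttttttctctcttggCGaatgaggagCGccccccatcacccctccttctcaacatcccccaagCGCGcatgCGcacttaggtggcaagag

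There were 16 CpG before Dsp, 21 before Fibcd1, 2 before Pcp4 and 9 before Nnat, against a median of 4 over 32851 RefSeq promoters of the same length. Promoters were found for 24 of the 31 members. Among the others Lct (log2 fold change 0.36) had 1 CpG, Rfx3 (-0.09) had 17 and Amigo2 (0.03) had 25. The full windows (250 bases before to 50 after the start) were searched on both strands, for 3 motifs. The first and second of them share the letters TTGC. The octamer ATTTGCAT, bound by POU factors such as the one Pou3f1 encodes, was in 0 of 24 member genes and in 1.74% of all promoters. The X-box core GTTGCC, bound by RFX factors such as the one Rfx3 encodes, was in 3 (Bok, Necab2 and Rfx3) and in 12.5% of all promoters of that length. The cAMP response element TGACGTCA was in 0 member genes and 1.79% of all promoters.

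**Figure D1:**
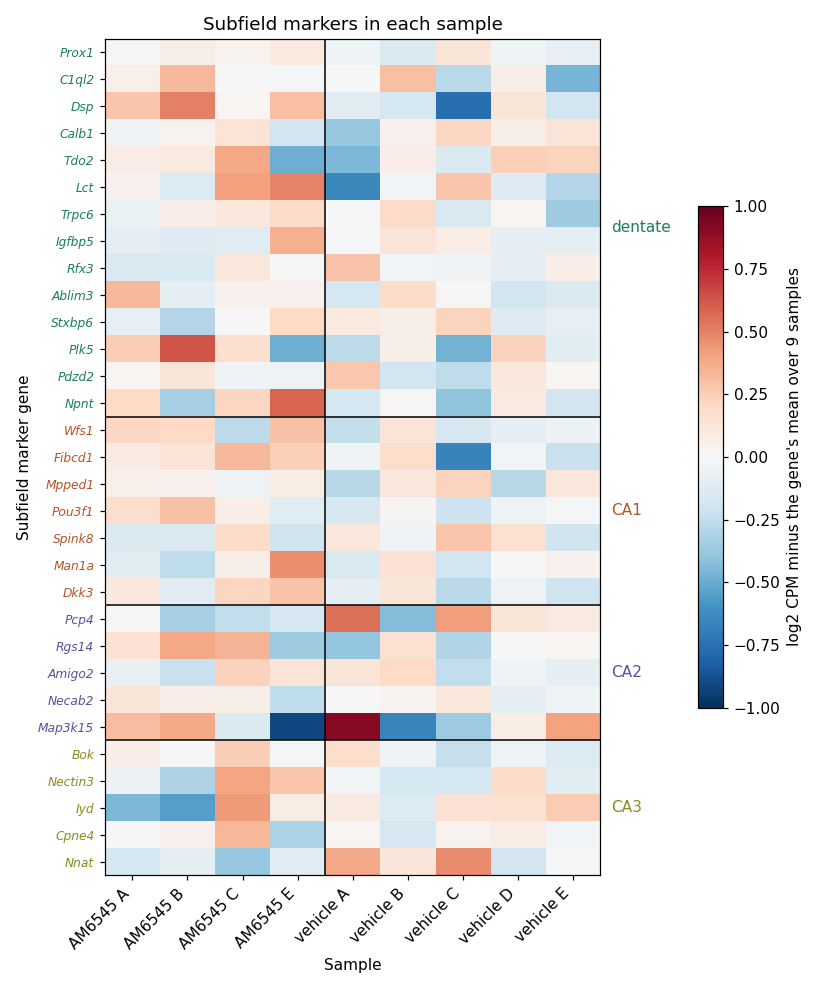
Heat map of the 31 subfield markers (rows, grouped as dentate, CA1, CA2 and CA3) in the 9 samples (columns, AM6545 left of the line). Colour is log2 CPM minus the gene's mean over the 9 samples. Vehicle C was lowest for 8 markers and highest for 6, and AM6545 C was highest for 4 of the 5 CA3 markers.

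Granule cells of the dentate gyrus are the most numerous neurons of the hippocampus, and their markers were mostly a little higher under AM6545. Of 14 members, 11 had a log2 fold change above 0 and 3 below, with a median of 0.10 against -0.01 over all genes tested. The range was -0.09 for Rfx3 to 0.48 for Dsp.

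Prox1 encodes the homeodomain factor that fixes granule cell identity. Its level was 57.9, 60.9, 60.003 and 62.7 CPM in AM6545 A, B, C and E and 56.9, 53.1, 63.8, 56.8 and 55.2 CPM in vehicle A to E. All values lay close together and the groups overlapped, with vehicle C the highest of all 9 and vehicle B the lowest. The difference was within the spread between replicates (log2 fold change 0.08, SE 0.09, edgeR adjusted p = 0.794). Prox1 varied least of the 31 members, with a coefficient of variation of 6.02% over the 9 samples.

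C1ql2 encodes a secreted C1q-like protein that granule cells release at mossy fibre synapses, where it gathers kainate receptors. It stood at 135, 163, 131 and 129 CPM in AM6545 A, B, C and E and at 129.9, 159.9, 108, 136 and 94.4 CPM in vehicle A to E. AM6545 B and vehicle B were high together, and vehicle E was the lowest. The groups overlapped (log2 fold change 0.15, SE 0.14, edgeR adjusted p = 0.761). The log2 fold change was 0.06 without vehicle E or without AM6545 B, and 0.26 without vehicle B.

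Dsp encodes desmoplakin, a desmosome protein whose mRNA marks granule cells in the hippocampus. It was at 14.3, 16.7, 11.97 and 14.6 CPM in AM6545 A, B, C and E and at 10.98, 10.4, 7.01, 12.8 and 10.3 CPM in vehicle A to E. Only AM6545 C lay within the vehicle range, under vehicle D, and vehicle C was the lowest of all 9. The treated mean was 14.4 ± 1.95 CPM (SD, n = 4) and the vehicle mean 10.3 ± 2.10 CPM (SD, n = 5), the largest difference of the 31 members (log2 fold change 0.48, SE 0.16, edgeR adjusted p = 0.653). The log2 fold change stayed between 0.37 (without vehicle C) and 0.57 (without vehicle D) when each sample was left out in turn. Counts for Dsp were between 138 and 395 per sample. Dsp shares 499 exonic bases with Gm10129 on the opposite strand, and the strand setting is not given in the sources used here.

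Lct encodes lactase, an intestinal enzyme whose transcript is a known granule cell marker. It read 33.1, 29.1, 42.5 and 45.3 CPM in AM6545 A, B, C and E against 20.5, 31.5, 38.9, 29.4 and 26.1 CPM in vehicle A to E. AM6545 E and AM6545 C were the highest and vehicle A the lowest, and the groups overlapped (log2 fold change 0.36, SE 0.17, edgeR adjusted p = 0.653). Leaving out AM6545 E gave 0.25, and leaving out vehicle C gave 0.48.

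Calb1, the calcium buffer calbindin, is the most abundant dentate member per length, at 70.3 CPM per kb of its longest M21 transcript. Its treated mean was 293 ± 27.2 CPM (SD, n = 4) and its vehicle mean 299.6 ± 43.4 CPM (SD, n = 5), and 2 of 4 AM6545 samples were above the vehicle mean. Vehicle A was the lowest for Calb1, as it was for Lct.

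Npnt, which encodes the matrix protein nephronectin, ran from 21.1 to 39.6 CPM under AM6545 and from 20.1 to 28.2 CPM under vehicle (log2 fold change 0.32, SE 0.16). Leaving out AM6545 E, its highest sample, brought the log2 fold change to 0.17. A difference of similar size was found for Plk5, a brain-expressed member of the polo-like kinase family (log2 fold change 0.28, SE 0.19), and it was 0.09 without AM6545 B. Plk5 was lowest in AM6545 E and highest in AM6545 B, so its 2 most distant samples were both treated. Smaller differences were seen for Ablim3, an actin-binding LIM protein (0.14), Trpc6, a cation channel (0.12), and Tdo2, tryptophan dioxygenase (0.04). Trpc6 has stretches of 202 to 315 bases that are at least 95% identical to transcripts of 5 other genes, so its level is uncertain.

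Igfbp5, which binds insulin-like growth factors (0.02), and Pdzd2, a PDZ domain protein (0.01), had fold changes near 0. Below 0 were Rfx3, a transcription factor (-0.09), Stxbp6, a SNARE-binding protein (-0.07), and Calb1 (-0.03). None of these 14 genes had an edgeR adjusted p under 0.65.

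The mean dentate level was 5.32, 5.31, 5.37 and 5.34 log2 CPM in AM6545 A, B, C and E and 5.15, 5.30, 5.15, 5.28 and 5.15 in vehicle A to E. Every AM6545 sample lay above every vehicle sample, but AM6545 B and vehicle B, the nearest pair, were 5.31 and 5.30. The members were chosen with results of these data known, so no p is attached to this separation, which was also seen with total counts as the scale (treated 5.32 to 5.35, vehicle 5.13 to 5.30). Vehicle A, C and E were nearly equal and low, and vehicle B and D were higher.

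Transcripts chosen for excitatory neurons were also higher in the mean under AM6545, with overlapping groups. A list of 9 transcripts of forebrain excitatory neurons, among them Slc17a7 (the vesicular glutamate transporter) and Camk2a, had a mean level of 8.93 ± 0.11 log2 CPM (SD, n = 4) under AM6545 and 8.83 ± 0.05 (SD, n = 5) under vehicle. AM6545 C and E (9.03 and 8.99) were above the vehicle range of 8.74 to 8.89, and AM6545 A and B (8.87 and 8.81) were within it. Of the 9 genes, 8 were higher and 1 lower, with 0 at an unadjusted p under 0.05. Taken relative to that list within each sample, the dentate level was -3.55, -3.49, -3.66 and -3.66 in AM6545 A, B, C and E and -3.69, -3.59, -3.65, -3.57 and -3.59 in vehicle A to E. On this scale the groups overlapped, and the gap between the means was 0.03 rather than 0.13.

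**Figure D2:**
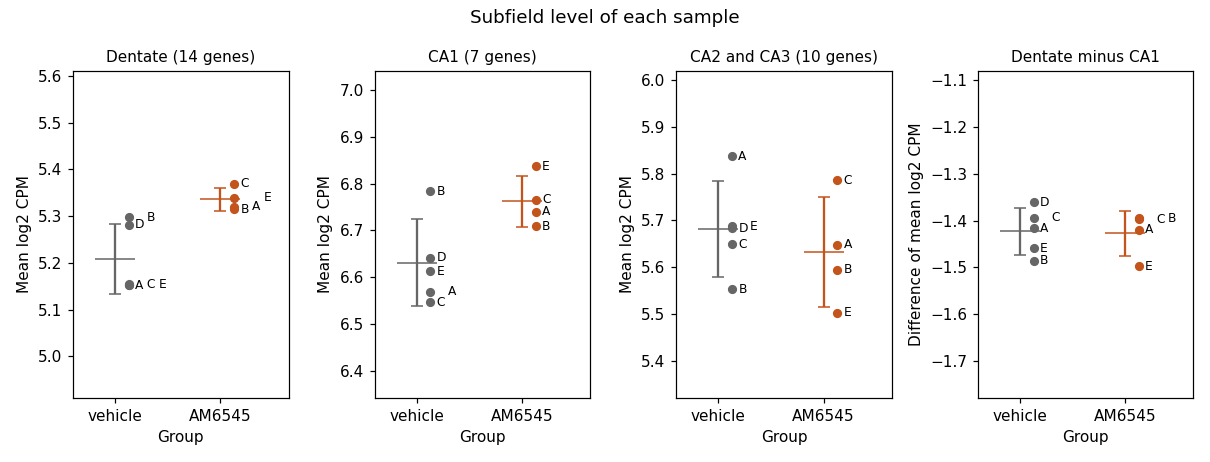
Subfield level of each sample, as the mean log2 CPM of the dentate, CA1, and CA2 with CA3 markers, and the dentate minus CA1 difference, by group. Points are samples with their letters, bars are the mean and 1 SD; the dentate groups do not overlap, while the dentate minus CA1 values run from -1.50 to -1.36 with both groups intermixed.

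CA1 pyramidal cells are the main output neurons of the hippocampus proper. Of 7 CA1 members, 6 were above 0 and 1 below, with a median of 0.19. Fibcd1 and Dkk3 had the largest differences, and Spink8 was the exception.

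Wfs1 encodes wolframin, an endoplasmic reticulum protein that is dense in dorsal CA1. Its level was 142, 141, 103 and 151 CPM in AM6545 A, B, C and E and 104, 134, 109.8, 116 and 119 CPM in vehicle A to E. AM6545 C was the lowest of all 9, under every vehicle sample, while the other 3 AM6545 samples were above every vehicle sample (log2 fold change 0.20, SE 0.12, edgeR adjusted p = 0.662). Without AM6545 C the log2 fold change was 0.31.

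Fibcd1 encodes a chitin-binding membrane receptor enriched in CA1. It had 131, 135, 156 and 145 CPM in AM6545 A, B, C and E and 121, 139, 77.9, 121 and 106 CPM in vehicle A to E. Vehicle C was far under the other samples, and vehicle B lay within the AM6545 range. The treated mean was 142 ± 11.2 CPM (SD, n = 4) and the vehicle mean 113 ± 22.9 CPM (SD, n = 5), which gave 0.32 on the log2 scale (SE 0.14; edgeR adjusted p = 0.653). It was 0.22 without vehicle C and 0.42 without vehicle B.

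Dkk3 encodes a secreted protein of the Dickkopf family. At 567, 487, 610.4 and 642 CPM in AM6545 A, B, C and E and 495, 572, 437, 510.04 and 459 CPM in vehicle A to E, it was highest in AM6545 E and lowest in vehicle C. AM6545 B lay under vehicle A, B and D, so the ranges overlapped (log2 fold change 0.22, SE 0.12, edgeR adjusted p = 0.653). Per kb of the longest transcript it ranks 2 among the members, at 158 CPM per kb. By median transcript length it ranks 3, after Nnat and Mpped1.

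Pou3f1, a POU-domain transcription factor, had a log2 fold change of 0.19 (SE 0.10). Man1a, a mannosidase of the Golgi, was at 0.09 (SE 0.13), and leaving out AM6545 E, its highest sample, turned the sign (-0.07). Mpped1, a metallophosphoesterase, was at 0.04 (SE 0.12). Spink8, a Kazal-type protease inhibitor, was lower in the treated mean, 25.3 ± 3.26 CPM (SD, n = 4), than in the vehicle mean, 27.9 ± 3.50 CPM (SD, n = 5), with -0.14 on the log2 scale (SE 0.12).

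As a mean level, the CA1 markers were at 6.74, 6.71, 6.77 and 6.84 log2 CPM in AM6545 A, B, C and E and at 6.57, 6.78, 6.55, 6.64 and 6.61 in vehicle A to E. Vehicle B was within the AM6545 range and the other 4 vehicle samples were below it. The gap between group means was 0.13, and relative to the excitatory neuron list it was 0.03.

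**Figure D3:**
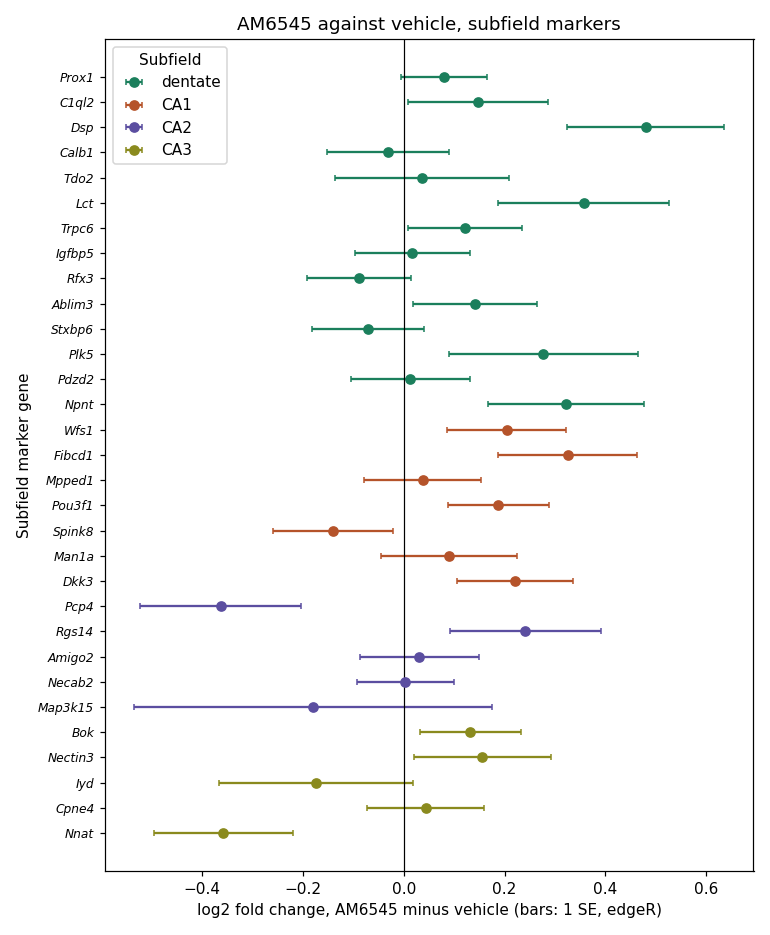
Log2 fold change of AM6545 against vehicle for each of the 31 markers, coloured by subfield, with 1 SE from edgeR. The dentate and CA1 markers lie mostly right of 0 (11 of 14 and 6 of 7), and Pcp4 and Nnat lie farthest to the left.

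CA2 and CA3 markers showed no common direction. Of 10 members, 6 were above 0 and 4 below, with a median of 0.02. The 2 fields each held 3 genes above 0 and 2 below.

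Pcp4 encodes a small calmodulin-binding protein, abundant in CA2 and also made by granule cells. It was at 86.2, 67.9, 71.9 and 75.8 CPM in AM6545 A, B, C and E and at 125, 63.1, 114, 92.8 and 90.8 CPM in vehicle A to E. Vehicle A and C were the highest, but vehicle B was the lowest of all 9, so the groups overlapped. The treated mean was 75.4 ± 7.85 CPM (SD, n = 4) and the vehicle mean 97.1 ± 23.8 CPM (SD, n = 5), which gave -0.36 on the log2 scale (SE 0.16; edgeR adjusted p = 0.653). Leaving out vehicle A gave -0.26 and leaving out vehicle B gave -0.48. In GENCODE M21 Pcp4 shares 243 exonic bases with Igsf5 on the same strand, so its count is uncertain.

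Rgs14 encodes a regulator of G protein signalling that restrains plasticity in CA2. It read 153, 180.1, 175 and 108 CPM in AM6545 A, B, C and E and 106, 153, 112, 139 and 140.01 CPM in vehicle A to E. AM6545 E was nearly as low as vehicle A, the lowest, while AM6545 B and C were the highest (log2 fold change 0.24, SE 0.15, edgeR adjusted p = 0.671). Without AM6545 E the fold change was 0.38, and without AM6545 B it was 0.16.

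Amigo2, an adhesion protein of CA2 and CA3, was at 54.1, 48.8, 66.7 and 62.2 CPM in AM6545 A, B, C and E and at 61.99, 65.3, 47.9, 55.3 and 53.004 CPM in vehicle A to E. The groups overlapped over most of their ranges (log2 fold change 0.03, SE 0.12, edgeR adjusted p = 0.951). The sign of this difference turned without AM6545 C, without AM6545 E and without vehicle C. Necab2, a neuronal calcium-binding protein, had nearly equal means, 84.1 ± 9.48 CPM (SD, n = 4) treated and 83.9 ± 4.29 CPM (SD, n = 5) vehicle. The kinase Map3k15 had only 14 to 35 counts per sample, and a log2 fold change of -0.18 with an SE of 0.36 so that no direction was detectable at this depth. It also shares 603 exonic bases with Pdha1 on the opposite strand, and the strand setting is not given in the sources used here. Shorter opposite-strand overlaps were found for Dsp (499 bases), Pou3f1 (330), Man1a (147), Prox1 (133), Nnat (87) and Amigo2 (58).

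Bok, a pro-apoptotic member of the BCL2 family enriched in CA3, stood at 102, 97.3, 115 and 95.4 CPM in AM6545 A, B, C and E and at 109, 93.4, 82.6, 93.5 and 87.9 CPM in vehicle A to E. All 4 AM6545 samples were above the vehicle mean, but vehicle A was above 3 of them (log2 fold change 0.13, SE 0.10, edgeR adjusted p = 0.716). Nectin3, an adhesion molecule of mossy fibre contacts, was at 69.9, 58.8, 95.5 and 87.95 CPM in AM6545 A, B, C and E and at 71.2, 64.3, 64.5, 83.1 and 67.2 CPM in vehicle A to E. AM6545 B was the lowest of all 9, and AM6545 C and E were the highest (log2 fold change 0.16, SE 0.14, edgeR adjusted p = 0.742). The log2 fold change was 0.04 without AM6545 C and 0.27 without AM6545 B.

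Nnat encodes neuronatin, a small membrane protein from an imprinted gene, and is the most abundant member per length at 449.9 CPM per kb. It was at 475, 501, 413 and 499 CPM in AM6545 A, B, C and E and at 696, 584, 745, 470.2 and 528 CPM in vehicle A to E. Vehicle A and C were the highest, as for Pcp4, and vehicle D lay within the AM6545 range. The treated mean was 472 ± 40.7 CPM (SD, n = 4) and the vehicle mean 605 ± 115 CPM (SD, n = 5), which gave -0.36 on the log2 scale (SE 0.14; edgeR adjusted p = 0.653).

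Among the other CA3 members, Cpne4, a copine that binds membranes in a calcium-dependent way, had a log2 fold change of 0.04 (SE 0.12). Iyd, iodotyrosine deiodinase, was at 5.32 ± 1.72 CPM (SD, n = 4) and 6.02 ± 0.579 CPM (SD, n = 5) in the treated and vehicle means, -0.17 on the log2 scale (SE 0.19). For Bok, Nectin3, Iyd and Cpne4, AM6545 C was the highest of the 9 samples, and for Nnat it was the lowest. The same sample had the lowest mean levels of the subiculum, ventral pole, isocortex, thalamus and striatum marker lists, and the part of that in the CA3 values was not tested.

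The CA2 with CA3 level was 5.65, 5.59, 5.79 and 5.50 log2 CPM in AM6545 A, B, C and E and 5.84, 5.55, 5.65, 5.68 and 5.69 in vehicle A to E. The means, 5.63 ± 0.12 (SD, n = 4) and 5.68 ± 0.10 (SD, n = 5), were less than 1 SD of either group apart. Dentate minus CA2 with CA3 values were -0.33, -0.28, -0.42 and -0.16 in AM6545 A, B, C and E and -0.69, -0.26, -0.50, -0.40 and -0.53 in vehicle A to E. Vehicle A was the lowest and AM6545 E the highest, and the groups overlapped. The means were -0.30 ± 0.11 (SD, n = 4) and -0.47 ± 0.16 (SD, n = 5), a gap of 0.18. CA1 minus CA2 with CA3 was 1.13 ± 0.15 (SD, n = 4) and 0.95 ± 0.18 (SD, n = 5), a gap of 0.18, with ranges of 0.98 to 1.33 and 0.73 to 1.23 that overlapped. Both balances against CA2 with CA3 ranged more widely over the 9 samples than dentate minus CA1 did. Every gene had equal weight in the CA2 with CA3 level, including Map3k15 with its 14 to 35 counts per sample. Map3k15 was lowest in AM6545 E (0.56 CPM) and highest in vehicle A (1.96 CPM), as the level was. The fold changes farthest from 0 in this list were those of Pcp4 and Nnat (-0.36 each), while 6 of the 10 genes were above 0. A level without Map3k15, or without Pcp4 and Nnat, was not computed.

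Transcript length differed among the members and moved with their fold changes. Across the 31 genes the log2 fold change was larger for longer transcripts (Spearman rho = 0.42 with the median protein-coding transcript length in M21 and 0.31 with the longest, n = 31 genes, which share the 9 libraries and are not replicates). Across 14494 genes tested the same rho was 0.24 and 0.25. Of the 6 members under 1000 bases in median length, 3 were above 0 and the median was -0.05, where 779 of 2428 genes of such length were above 0, with a median of -0.10. Among the 14 members of 3000 bases or more, 11 were above 0 and the median was 0.16, where 2861 of 4876 genes of such length were above 0, with a median of 0.04. The dentate members had a median length of 3388.5 bases, the CA1 members 3359 bases and the CA2 with CA3 members 1418 bases.

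Among single members, Pcp4 (633.5 bases), Spink8 (637 bases) and Nnat (843.5 bases) had fold changes below 0, and Dsp (8676.5 bases), Lct (6174 bases) and Fibcd1 (4751 bases) had fold changes above 0.3. With each sample's trend of log2 CPM with length removed, Pcp4 was at -0.26, Nnat at -0.28, Dsp at 0.45 and Fibcd1 at 0.28. In that fit 2 members had an unadjusted p under 0.05, Dsp and Bok.

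**Figure D4:**
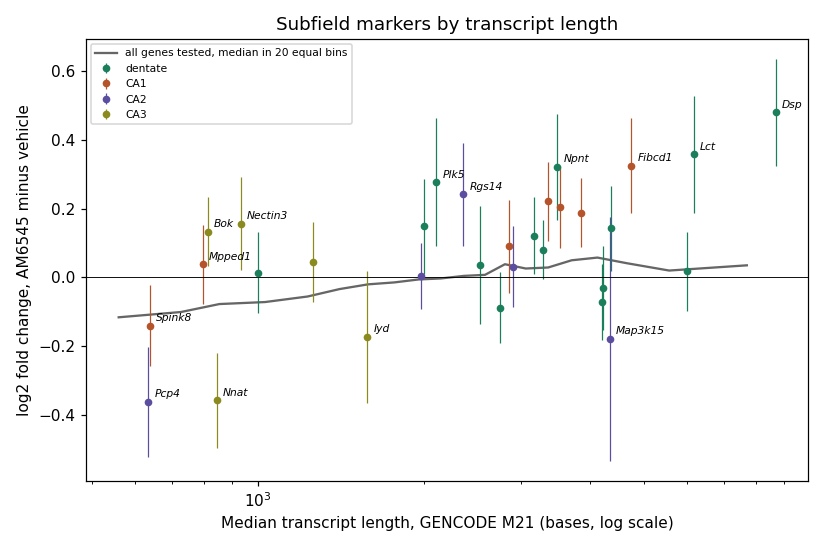
Log2 fold change of each marker (points, 1 SE) against its median transcript length in GENCODE M21 on a log axis, coloured by subfield, with the median of all genes tested in 20 length bins (line). The short markers Pcp4, Nnat and Spink8 lie below 0, while the short markers Mpped1, Bok and Nectin3 lie above it. Long markers such as Dsp, Lct and Fibcd1 lie above 0, while Map3k15, Calb1 and Stxbp6, also long, lie below it.

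Markers outside the 31 members were read by list. Over all genes tested, 48.2% were above 0 and 7.21% had an unadjusted p under 0.05. Of 7 other genes of dentate granule cells, 4 were higher and 3 lower, with a median log2 fold change of 0.01; 1, Bcl11b, had an unadjusted p under 0.05. The mean level of these 7 genes was 5.77 ± 0.08 log2 CPM (SD, n = 4) against 5.76 ± 0.06 (SD, n = 5). Bcl11b, a zinc finger factor of granule cells, was at 163 ± 18.2 CPM (SD, n = 4) under AM6545 and 137 ± 12.5 CPM (SD, n = 5). For the level of the 7 genes the gap between group means was 0.01, against 0.13 for the 14 members. In this list AM6545 A was the lowest sample (5.66 log2 CPM) and vehicle A the highest (5.85). For the 14 members vehicle A was among the lowest (5.15). A balance of these 7 genes against CA1 was not computed, so the near-equal balance is that of the 14 members.

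Among 13 other genes of the CA fields, 9 were higher and 4 lower (median 0.06), where 48.2% of all genes were above 0. An unadjusted p under 0.05 was found for 3, against 7.21% of all genes. These were Tspan18, Grik4 and Ptpn5, each higher in the mean of AM6545 samples. Grik4, the kainate receptor subunit of CA3, was at 41.1 ± 5.42 CPM (SD, n = 4) and 34.1 ± 4.44 CPM (SD, n = 5). The 6 tested genes of newborn granule cells and dividing progenitors were all below 0 (median -0.31), with 0 at an unadjusted p under 0.05. Their summed level was 55.3 to 73.4 CPM in AM6545 samples and 68.5 to 83.3 CPM in vehicle samples. In mean level this list was highest in vehicle A, D and E, at 2.38, 2.42 and 2.48 log2 CPM. The choroid plexus list was also highest in these samples, at 6.33, 6.44 and 5.83 log2 CPM. AM6545 C and vehicle C were the lowest samples for each list. The part of choroid plexus content in the values of the newborn granule cell and progenitor list was not tested. Mossy cell markers had 2 higher and 3 lower (median -0.01), and subiculum markers 3 higher and 4 lower (median -0.02).

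Genes of the ventral pole, the end of the hippocampus nearest the amygdala, had 1 of 6 above 0 (median -0.22). Of the 6 (Trhr, Dcn, Gpc3, Grp, Nr2f2 and Htr2c), Nr2f2 and Grp had an unadjusted p under 0.05, against 7.21% of all genes. Their summed level overlapped between groups, at 203 to 272 CPM in AM6545 samples and 220 to 309 CPM in vehicle samples. Whether these genes read ventral tissue in this fraction was not tested. Nr2f2, a nuclear receptor that is also expressed in interneurons and vessels, was at 21.9 ± 2.73 CPM (SD, n = 4) and 30.3 ± 5.10 CPM (SD, n = 5), with every AM6545 sample below every vehicle sample (log2 fold change -0.47, SE 0.13, edgeR adjusted p = 0.653). Lists for neighbouring regions had medians of -0.01 (isocortex), 0.03 (thalamus) and -0.07 (striatum). Their summed levels overlapped between groups, at 149.6 to 167 and 149.8 to 185 CPM for isocortex, 43.7 to 58.9 and 37.5 to 56.6 CPM for thalamus, and 111 to 143 and 116 to 182 CPM for striatum, in AM6545 and vehicle samples.

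Markers of non-principal cells also overlapped between the groups in summed level, and no list had a gene under 10 counts in every sample. Medians were -0.08 for 11 interneuron genes, -0.02 for 10 astrocyte genes, -0.12 for 10 oligodendrocyte genes, 0.07 for 10 microglia genes, -0.15 for 9 endothelial genes and -1.41 for 8 choroid plexus genes. An unadjusted p under 0.05 was found for choroid plexus Folr1 and Prlr, endothelial Tek and Slco1a4 and oligodendrocyte Mal, each lower in the treated mean, and for microglial Tmem119. Tmem119 was at 52.4 ± 3.51 CPM (SD, n = 4) under AM6545 and 41.8 ± 8.08 CPM (SD, n = 5) under vehicle, and its treated samples were above every vehicle sample. Over all genes tested, 7.21% had an unadjusted p under 0.05 and 1.45% had groups that did not overlap. Vehicle C was the lowest sample for Dsp, Fibcd1 and Dkk3. It also had the lowest astrocyte, oligodendrocyte, microglia, endothelial and choroid plexus levels of the 9 samples. Its subiculum, isocortex and striatum levels (4.01, 3.78 and 4.12 log2 CPM) were the highest. The part of either in the marker values was not tested.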

How the data were processed

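The authors deposited 1 table of estimated counts, not scaled between samples, with a column for each of the 9 synaptoneurosome samples. Salmon 1.3, DESeq2 1.30, GRCm39 and mm10 are named in the submitters' processing notes with no role; strand and annotation are not given in the sources used here. Libraries came from a SMARTer Ultra Low Input kit, per the labels' protocols. Of 22255 Ensembl identifiers 22155 matched a symbol once versions were removed. Counts were rounded, filtered with filterByExpr (14512 genes), scaled with TMM and tested by quasi-likelihood in edgeR 4.0.16 under R 4.3.3, with Benjamini-Hochberg adjustment over all genes and a threshold of 0.05. SE is the absolute log2 fold change over the square root of F. Levels per sample are means of log2 CPM with a prior count of 2. CPM per kb uses the longest protein-coding transcript of GENCODE M21. Similar transcripts were found with blastn 2.17.0.

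The members and 16 other marker lists were chosen with earlier results of these data known. Values in every sample are given for 2 defining markers of each field, members with an unadjusted p under 0.05 or with CPM ranges that do not overlap, and the 2 largest fold changes of dentate, CA1, and CA2 with CA3. Every pair of libraries differed by more than sampling noise (36 pairs, chi-square 10.4 to 93.4 times its degrees of freedom). The edgeR test was tried on data of 14512 genes simulated for this comparison. It recovered 51.6% of 246 genes changed by 1.5-fold and 84.6% of those changed by 2-fold, and 7.87% of its calls were false. Each set had 200 changed genes, and changes under 1.5-fold were not simulated. Genes were drawn independently, without the variation that genes of a library share, so these rates may not hold for the real libraries. Alternatives were other scalings and count filters, DESeq2 1.42.0, limma-voom (limma 3.58.1) with sample weights, the replicate letter as a block, and each sample left out; removal of the length trend (lowess, span 0.3) was chosen after seeing the data.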

Additional observations from a re-analysis of the deposited data

Results flagged for a closer look

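For the members and their levels, the most distant sample of each group was judged by Dixon's ratio, its gap to the nearest sample over the range of the group. Of 72 groups of values, 3 had a sample past the 95% critical value, where chance gives 3.6. C1ql2 was at 163 CPM in AM6545 B, while AM6545 A, C and E had 129 to 135 CPM (ratio 0.835). Igfbp5 was at 58.3 CPM in AM6545 E, with the others between 41.6 and 42.4 CPM (ratio 0.948), and its log2 fold change of 0.02 was -0.12 without that sample. Spink8 was at 30.1 CPM in AM6545 C, with the others between 23.1 and 23.98 CPM (ratio 0.877), and its log2 fold change was -0.24 without that sample.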

How the results depend on the processing

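Genes past the adjusted threshold numbered 0 under the 8 alternatives that kept all samples, and 0 to 1 with each sample left out (1 without AM6545 A, the non-member Gm14308, named after its value was seen). No member had an adjusted p under 0.05 in any of the 17 alternatives. The number of members at an unadjusted p under 0.05 was 7 with DESeq2 and 2 with the length trend removed, against 4, and ran from 2 to 7 with each sample left out. Over all genes that number was 1047, with 759 with the replicate block, 1160 by DESeq2, 939 with the length trend removed and 1823 by limma-voom weights. It was 1848 without AM6545 E, 1797 without vehicle B, and 663, 642, 690 and 496 without AM6545 A, AM6545 B, AM6545 C and vehicle A. Fits that differ in filter or samples need not have tested the same genes. The medians of the dentate, CA1, and CA2 with CA3 members moved by less than 0.06, 0.08 and 0.11 under all alternatives. These limits are the SD between single samples of each list's level, not the spread of a median. The dentate median ran from 0.06 to 0.13 and the CA1 median from 0.14 to 0.22. The CA2 with CA3 median changed sign, from -0.06 without AM6545 C to 0.06 without AM6545 E. Of 31 members, 20 kept the sign of their fold change throughout, 6 turned only with a sample left out and 5 under another alternative. Those 5 were Necab2, at -0.0062 with total counts and -0.0260 with the replicate block; Igfbp5, at -0.0202 with the replicate block, -0.0477 with limma-voom weights and -0.0256 with the length trend removed; Mpped1, at -0.0119 with the replicate block; Man1a, at -0.0553 with limma-voom weights; and Amigo2, at -0.0017 with the length trend removed. The cause was not tested. With each sample left out in turn, fold changes ran from -0.0386 to 0.0809 for Necab2, -0.157 to 0.00589 for Stxbp6, -0.0420 to 0.0864 for Pdzd2, -0.0963 to 0.181 for Tdo2, -0.0433 to 0.106 for Amigo2, -0.0724 to 0.144 for Cpne4, -0.117 to 0.0236 for Calb1, -0.118 to 0.0634 for Igfbp5, -0.0750 to 0.183 for Man1a, -0.343 to 0.0594 for Map3k15 and -0.0230 to 0.100 for Mpped1. Samples that share a letter were not shown to be paired: deviations from the group means correlated at -0.02 to 0.34 over the 4 shared letters, and with the replicate block 6 members and 759 of all genes had an unadjusted p under 0.05.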
